A study of Rattus norvegicus with 91 samples.

Results

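Liver of Wistar rats labelled 168 h in a methylprednisolone time course was compared with liver labelled 72 h. The comparison holds 8 arrays, 4 titled 168 h and 4 titled 72 h, chosen by title alone, out of 44 arrays of the course that runs to 168 h and 91 arrays of the whole series. Total RNA of each liver sample was measured on 1 Affymetrix expression array, which gives 1 signal per probe set. Both groups carry the label of 50 mg/kg of the synthetic glucocorticoid methylprednisolone, and the time is the only label in which they differ. The 4 arrays titled as controls, which are outside the comparison, are listed with the same dose. They are called controls by title alone. Route, schedule, vehicle, sex, age and time of day are not in the labels. Whether the 4 arrays of a group come from 4 rats is not stated, so the p-values measure a spread between arrays that may be technical in part.

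Glucocorticoids enter hepatocytes and bind the glucocorticoid receptor, which turns on enzymes of amino acid breakdown and glucose output and holds back inflammatory genes. The same hormone helps interleukin-6 type cytokines to induce acute-phase proteins, the plasma proteins that the liver makes in inflammation, and rat alpha-2-macroglobulin is a classic case. The liver is also the main site of drug and steroid hydroxylation, and in rats several of these enzymes differ between the sexes under the pattern of growth hormone release. Resident macrophages of the liver, the Kupffer cells, take up particles and spent red cells and release chemokines.

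Higher at 168 h were 5 of 25 genes on an acute-phase list (the receptor Il1r1 among them), the heme oxygenase Hmox1 and the quinone reductase Nqo1. Lower at 168 h were 3 of 30 drug-metabolism genes, among them the steroid hydroxylase Cyp2a2, the uptake transporter Slco1a4 and, of 26 fatty acid oxidation genes, Acadm. Over the 40 treated arrays of the course, which share 1 estimate of spread, 81 of 11106 probe sets passed an adjusted p of 0.05 (limma, Benjamini-Hochberg), which is 0.729%, with 52 higher (0.468%) and 29 lower (0.261%) at 168 h. At an unadjusted p under 0.05 there were 1241. With each gene read from its brightest probe set, 65 of 8068 genes passed (0.806%), 40 higher (0.496%) and 25 lower (0.31%). Differences are given as log2 of signal plus 32 at 168 h minus 72 h, with the standard error. This scale understates the change of dim genes. In the same fit 0 probe sets passed at 96 h against 72 h (553 at an unadjusted p under 0.05), and 1 passed at 168 h against 96 h, which is 0.009% (1064 at an unadjusted p under 0.05). All 4 arrays at 168 h lay above all 4 at 72 h in 1.83% of the genes tested, and below them in 2.48%. Among the 40 higher genes this held for 24 and among the 25 lower ones for 20. These genes were called on the same arrays, so a larger share than over all genes follows from the choice.

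**Figure D1:**
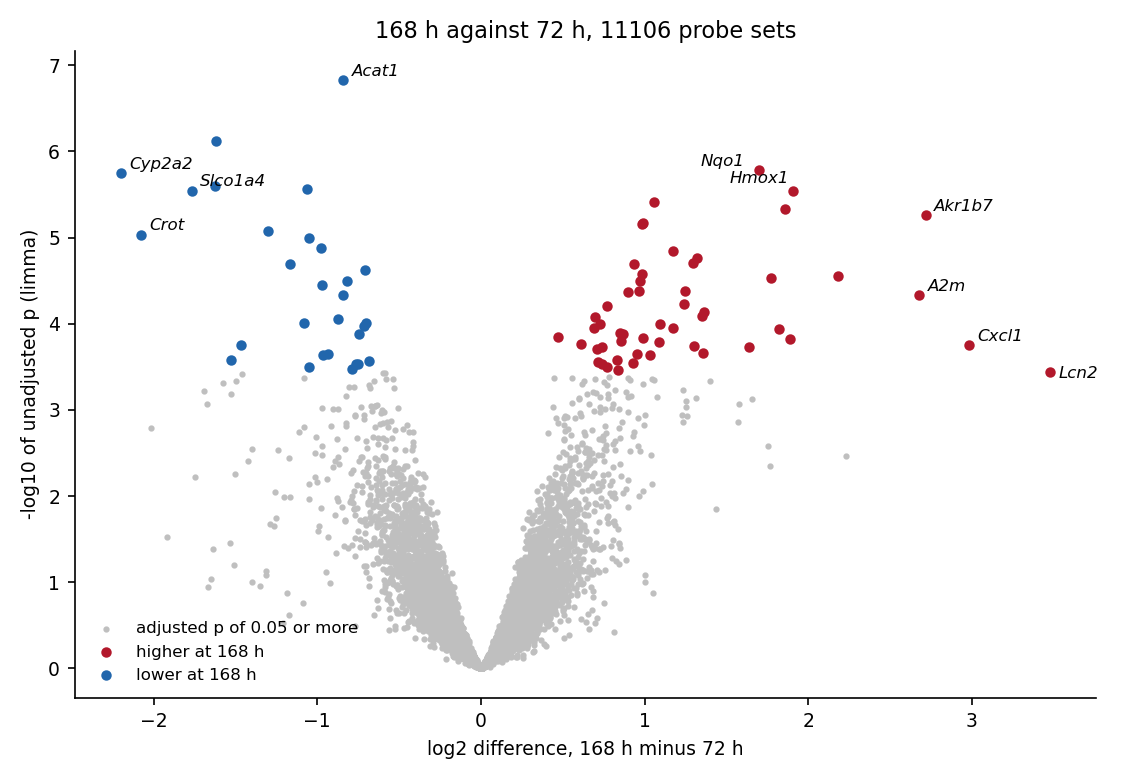
Each point is 1 of 11106 probe sets, with the log2 difference of 168 h minus 72 h on the x axis and -log10 of the unadjusted limma p on the y axis. The 52 probe sets higher at 168 h are red and the 29 lower ones blue; Lcn2 lies farthest to the right at 3.48 and Acat1 highest, at an adjusted p of 0.00166.

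These calls rest on few arrays. With only the 8 arrays in the fit 0 probe sets passed, against 933 at an unadjusted p under 0.05, and the adjusted p of the 35 named genes that pass in the shared fit then ran from 0.0569 to 0.396. Without 168 h replicate 2 the count was 19, without 168 h replicate 3 it was 18, and without both it was 0 (599 at an unadjusted p under 0.05). Without 168 h replicate 4 it was 279, without 72 h replicate 1 it was 49 and without 72 h replicate 3 it was 33. Of the 35 named genes, 6 stayed past the threshold whichever single array of the 8 was left out, namely Hmox1, Nqo1, Cyp2a2, Crot, Slco1a4 and Acat1. Of those 8 fits, Akr1b7 and Ces1c passed in 7, Il1r1 and Acadm in 6, A2m in 4, Lbp in 3, and Lcn2 and Cxcl1 in 2.

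In the genes past the threshold, which were chosen on these arrays, replicate 4 at 168 h read apart from the other 168 h arrays. It was not above the highest 72 h array in 15 of the 40 higher genes, while 168 h replicates 1, 2 and 3 were not above it in 1, 1 and 0. Among the 25 lower genes it was not below the lowest 72 h array in 4, against 1, 1 and 0 for the other 168 h arrays. Over the probe sets tested, the mean correlation was 0.926 between pairs of 168 h arrays, 0.943 between pairs of 72 h arrays and 0.925 across the times. With the 72 h arrays, 168 h replicates 1 to 4 had mean correlations of 0.941, 0.909, 0.913 and 0.938. With the treated arrays of the course these were 0.933, 0.906, 0.913 and 0.923. By these values replicates 2 and 3 stood further from the rest than replicate 4. The 3' to 5' signal of GAPDH, a sign of RNA length, was 0.31 to 0.44 (log2) at 168 h and 0.30 to 0.35 at 72 h. That of actin was 1.14, 0.70, 0.65 and 1.12 on 168 h replicates 1 to 4, and 0.61 to 1.16 at 72 h.

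Signals of the spiked-in bacterial transcripts, added as array controls, split the arrays unevenly. Over the control and treated groups of the course, replicate 4 was in the high class in 11 of 11 and replicates 1 to 3 on 4 of 33 arrays. They were high on 168 h replicates 2, 3 and 4 and on 72 h replicate 4, and low on 168 h replicate 1 and 72 h replicates 1, 2 and 3. Within the arrays of low spike-in signal (1 against 3) the 40 higher genes had a median difference of 1.04, and within those of high signal (3 against 1) it was 0.99. All 40 were positive in both. For the 25 lower genes these medians were -0.81 and -0.96, and all 25 were negative in both. With the class as a block in the fit 87 probe sets passed, of which 65 were among the 81, and 31 of the 40 higher and 20 of the 25 lower genes passed. In the low class alone 15 probe sets passed (896 at an unadjusted p under 0.05) and in the high class alone 0 (484). These genes were chosen on all 8 arrays, so their sign within a class is a description.

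**Figure D2:**
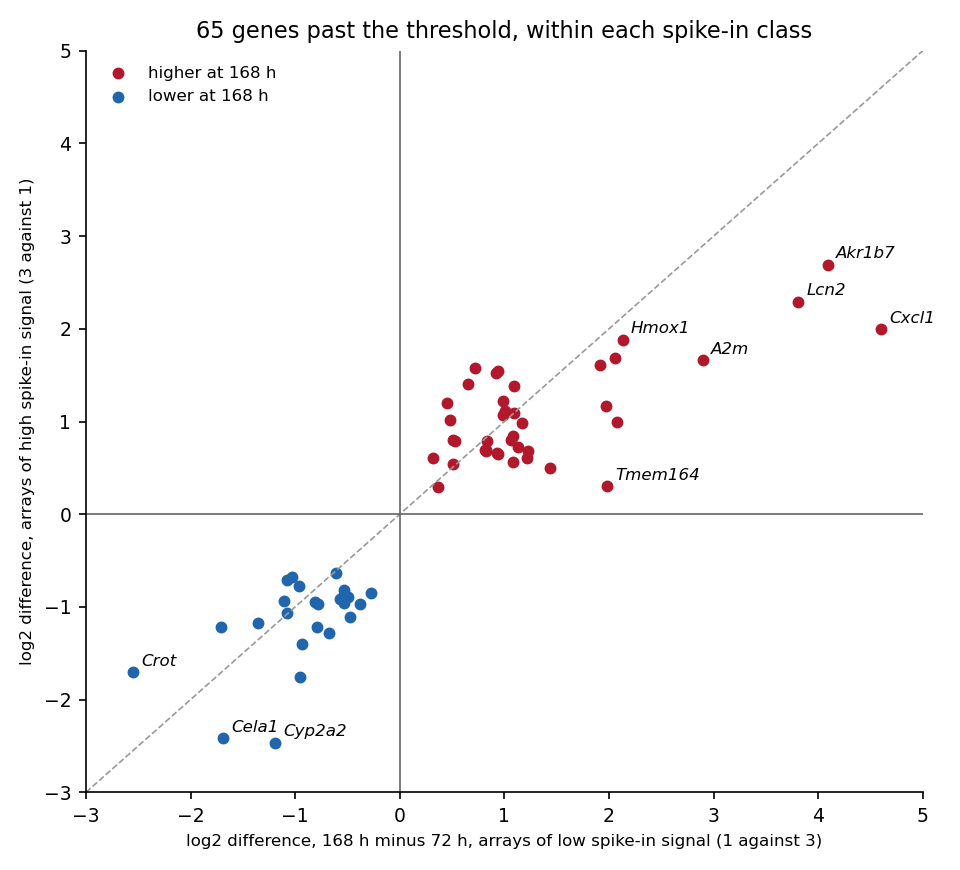
Each point is 1 of the 65 genes past the threshold, with its log2 difference of 168 h minus 72 h among arrays of low spike-in signal on the x axis and among arrays of high signal on the y axis (dashed line, equal values). Red genes are higher and blue genes lower at 168 h; Cxcl1 reads 4.60 in the low class and 1.99 in the high class, and Tmem164 1.98 and 0.30.

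Among 25 acute-phase genes tested, 5 rose, 0 fell and 20 did not pass, where 0.496% of all genes tested rose. The list's median difference was 0.75, and 24 of 25 values were positive, beside a median of 0.0041 over all genes with 4090 positive and 3978 negative. That median was 0.079 within the arrays of low spike-in signal, 0.47 within those of high signal, 0.42 with the class as a block, when 4 rose, and 0.16 without 168 h replicates 2 and 3, when 0 rose. It ran from 0.52 (without 168 h replicate 3) to 1.03 (without 168 h replicate 1) with single arrays left out; 9 of the 25 rose without 168 h replicate 4, 8 without 168 h replicate 1, 0 without 168 h replicate 2 or 3, and 2, 3, 1 and 6 without 72 h replicates 1 to 4. By array, 20 and 21 of the 25 genes lay above every 72 h array on 168 h replicates 2 and 3, and 8 did on each of replicates 1 and 4. On replicate 1, 7 of the 25 lay below every 72 h array. Shares by single array were not taken over all genes tested, so these counts are a description.

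Lcn2 (probe set 1387011_at, lipocalin-2, a carrier of iron-binding siderophores that hepatocytes and neutrophils release in inflammation) had signals of 2739.6, 12598, 14052 and 112 at 168 h, against 97.9, 144, 305 and 569 at 72 h, each in the order of replicates 1 to 4. The first 3 arrays at 168 h were above all 72 h arrays and replicate 4 was within the 72 h range. The difference was 3.48 ± 0.89, adjusted p = 0.0494 (n = 4 each), which is 11.1-fold on the log2 scale with 32 added. It was 2.72 without 168 h replicate 3 and 4.92 without 168 h replicate 4. Within the low and the high spike-in class it was 3.81 and 2.29, and with the class as a block Lcn2 did not pass (adjusted p = 0.077).

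A2m (probe set 1367794_at, alpha-2-macroglobulin, a protease trap of rat plasma) read 6741, 17102, 19444 and 1319 at 168 h, against 468, 1442, 983 and 2390.0 at 72 h. It was highest on 168 h replicates 2 and 3, and 168 h replicate 4 lay within the 72 h range. The difference was 2.68 ± 0.58, adjusted p = 0.0152, with 2.90 and 1.66 in the low and high spike-in class. It was 2.22 without 168 h replicate 3 and 3.50 without 168 h replicate 4. Lbp, which hands bacterial lipopolysaccharide to its receptor, read 1865, 4196, 3365 and 562 at 168 h, against 517, 467, 437 and 637 at 72 h, with the same array inside the 72 h range (difference 1.89 ± 0.45, adjusted p = 0.0307, and 2.47 without that array).

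Il1r1, the signalling receptor for interleukin-1, read 183, 340.0, 352 and 99.5 at 168 h, against 46.6, 74.2, 90.3 and 69.6 at 72 h. It was counted on the acute-phase list, though a receptor is not one of the plasma proteins that the list is named for. All 4 arrays at 168 h were above all at 72 h, and the difference was 1.32 ± 0.27, adjusted p = 0.00997. A second probe set of Il1r1 also passed (0.86 ± 0.20, adjusted p = 0.032). The remaining acute-phase gene past the threshold was C4bpa, a brake on complement, with signals of 4859.6, 7636, 11502 and 5529 at 168 h, against 3741, 3301, 3362 and 3859.7 at 72 h (difference 0.96 ± 0.21, adjusted p = 0.0149). Serpina3n, a protease inhibitor of plasma, stood at 1.06 and did not pass (adjusted p = 0.0518), though its groups did not overlap.

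Albumin, the main plasma protein, read highest on the arrays of high spike-in signal at either time. Alb signal was 9768, 27951, 32174 and 27574 at 168 h, against 10595, 11492, 15012 and 30141 at 72 h, so the 3 high-class arrays at 168 h and the 1 at 72 h were the 4 highest. Its difference was 0.53 (adjusted p = 0.678). The summed signal of 8 hepatocyte markers was split in the same way, at 47115, 120216, 127861 and 102294 at 168 h, against 52639.7, 55959, 69772 and 114696 at 72 h. The classes are uneven between the times, and the cause of the split in albumin and these markers was not tested. The acute-phase medians within each class stand above.

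Cxcl1 (probe set 1387316_at), a chemokine that attracts neutrophils, was the gene past the threshold among 17 inflammatory mediators. Its signals were 1153, 786, 937 and 6.11 at 168 h, against 33.5, 12.2, 8.6 and 46.2 at 72 h. On 3 of the 4 arrays at 168 h it was far above every 72 h array, and on replicate 4 it was the lowest of the 8. The difference was 2.98 ± 0.72, adjusted p = 0.0332, and it was 2.50 without 168 h replicate 1 and 4.15 without 168 h replicate 4. The median of the 17 genes was 0.14, and with single arrays left out it ran from 0.0096 (without 72 h replicate 4) to 0.21 (without 168 h replicate 4).

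The 300 bases around the annotated start (250 before and 50 after) of Cxcl1, Lcn2 and Il1r1 are shown, from RefSeq (build GRCr8). Each holds a match to a 10-base NF-kappaB consensus, the site of the factor that drives many inflammatory genes. They were picked by name, and other genes past the threshold also hold a match. Capitals mark the match on either strand. In Cxcl1 matches on both strands overlap and span -84 to -74 from the start, in Lcn2 the match lies on the opposite strand at -242 to -233, and in Il1r1 it does so at -135 to -126.
Cxcl1 promoter, GRCr8 chr14:17479272-17479571, minus strand: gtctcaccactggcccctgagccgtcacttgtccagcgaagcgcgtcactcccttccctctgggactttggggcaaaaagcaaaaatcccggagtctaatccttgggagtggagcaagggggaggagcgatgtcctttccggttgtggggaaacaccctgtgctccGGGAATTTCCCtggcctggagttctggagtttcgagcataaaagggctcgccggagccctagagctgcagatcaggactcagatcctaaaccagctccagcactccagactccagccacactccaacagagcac
Lcn2 promoter, GRCr8 chr3:36081731-36082030, minus strand: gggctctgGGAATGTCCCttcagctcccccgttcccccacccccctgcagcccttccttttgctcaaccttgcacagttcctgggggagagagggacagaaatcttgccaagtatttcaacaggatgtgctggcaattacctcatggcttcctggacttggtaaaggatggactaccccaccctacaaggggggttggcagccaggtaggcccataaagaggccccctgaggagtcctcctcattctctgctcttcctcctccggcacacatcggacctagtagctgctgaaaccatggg
Il1r1 promoter, GRCr8 chr9:50034133-50034432, plus strand: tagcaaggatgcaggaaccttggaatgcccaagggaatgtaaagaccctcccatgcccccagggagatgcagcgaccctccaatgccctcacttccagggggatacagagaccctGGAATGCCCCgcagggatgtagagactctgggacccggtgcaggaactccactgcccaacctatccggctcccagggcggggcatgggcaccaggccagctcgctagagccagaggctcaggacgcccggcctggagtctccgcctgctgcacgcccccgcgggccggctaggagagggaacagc
The consensus was searched on both strands and was added to the motifs after the values of these genes had been seen. Such a match stands in 7.53% of 33365 distinct rat promoter sequences of this length. Among the higher genes 26 of 40 have a promoter in the table and 6 of the 26 hold a match, and among the lower genes 20 of 25 have one and 1 of the 20 holds a match. The lower gene is Acadm, of fatty acid oxidation, with a match on both strands at -63 to -54 that is not shown. The palindromic glucocorticoid response element was found in 0 of the 26 and 0 of the 20, and in 0.015% of all promoters. Other motifs were searched as well. The CCAAT box was in 12 of the 26 and 12 of the 20 (37.5% of all promoters), and the E-box in 1 and 3 (6.43%). The antioxidant response element core was in 1 and 0 (12.1%), the STAT site in 1 and 0 (8.88%) and the D-box in 1 and 0 (0.86%). The sterol response element was in 0 and 0 (0.126%). A gene counts if any of its promoters holds a match, while the percentages count single sequences, so the measures are unlike. A match is a description of letters, and no match says only that these letters are not in the window.

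Of 9 Kupffer cell and macrophage markers 1 rose and 8 did not pass. The median difference of the 9 was 0.59, and 8 were positive. It was 0.49 in the low and 0.39 in the high spike-in class. C1qc, a chain of the complement starter C1q that macrophages make, read 339.6, 416, 471 and 178 at 168 h, against 182, 183, 128 and 196 at 72 h. Replicate 4 at 168 h lay within the 72 h range, and the difference was 0.85 ± 0.20, adjusted p = 0.029. With the spike-in class as a block it did not pass (adjusted p = 0.0534). With single arrays left out the median of the 9 ran from 0.39 (without 168 h replicate 3) to 0.77 (without 168 h replicate 4), and between 0 and 5 of them rose, 5 without 168 h replicate 4 and 0 without 168 h replicate 2 or 3 or 72 h replicate 1 or 3. Without 168 h replicates 2 and 3 together the median was 0.33 and 0 rose, and 0 rose with the spike-in block.

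Ctss, a lysosomal protease of antigen-presenting cells, read 594, 608, 829 and 317 at 168 h, against 242, 399, 166 and 316 at 72 h (difference 0.97 ± 0.21, adjusted p = 0.0128) and was 1 of 9 class II presentation genes to pass. The summed signal of the 9 macrophage markers was 2877, 2968, 3974 and 2178 at 168 h, against 2399.7, 1881, 1721 and 2037 at 72 h, and 3144 to 3457 in the 4 controls. In bulk tissue more cells of a type and more RNA per cell cannot be told apart. Of 6 neutrophil markers on the array 2 were bright enough to test and 0 passed. Their 6 signals summed to 168, 630.4, 751 and 132 at 168 h, against 153, 99.2, 228 and 85.2 at 72 h.

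Of 27 oxidant-response and glutathione genes 2 rose, 1 fell and 24 did not pass, with a median of -0.13 that ran from -0.17 (without 168 h replicate 4) to -0.051 (without 168 h replicate 3) with single arrays left out. Hmox1 (probe set 1370080_at, heme oxygenase 1, which opens the heme ring and is used by macrophages that clear red cells) read 547, 1097, 564 and 113 at 168 h, against 118, 106, 79.5 and 93 at 72 h. Of the 168 h arrays replicate 2 was highest, and replicate 4 was below the highest 72 h array. The difference was 1.90 ± 0.35, adjusted p = 0.00402, with 2.13 and 1.88 in the low and high spike-in class.

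Nqo1 (probe set 1387599_a_at, a quinone reductase and a textbook target of the oxidant sensor Nrf2) read 950.2, 1038, 954 and 266 at 168 h, against 232, 194, 191 and 179.5 at 72 h. All 168 h arrays were above all 72 h arrays, and replicate 4 was the lowest of them. The difference was 1.70 ± 0.30, adjusted p = 0.00402, with 2.05 and 1.68 by class. The genes of the oxidant-response and glutathione list other than Hmox1, Nqo1 and Gstm1 did not pass. Gclm and Gclc, the subunits of the enzyme that starts glutathione synthesis, stood at -0.48 (adjusted p = 0.521) and -0.51 (adjusted p = 0.265), and Txnrd1 at 0.18 (adjusted p = 0.72). Gstm1, a glutathione transferase, fell, with signals of 1675, 1189, 1460.0 and 2871 at 168 h, against 4034, 3061, 3680.5 and 2815 at 72 h (difference -0.97 ± 0.21, adjusted p = 0.0137), and 168 h replicate 4 was inside the 72 h range.

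**Figure D3:**
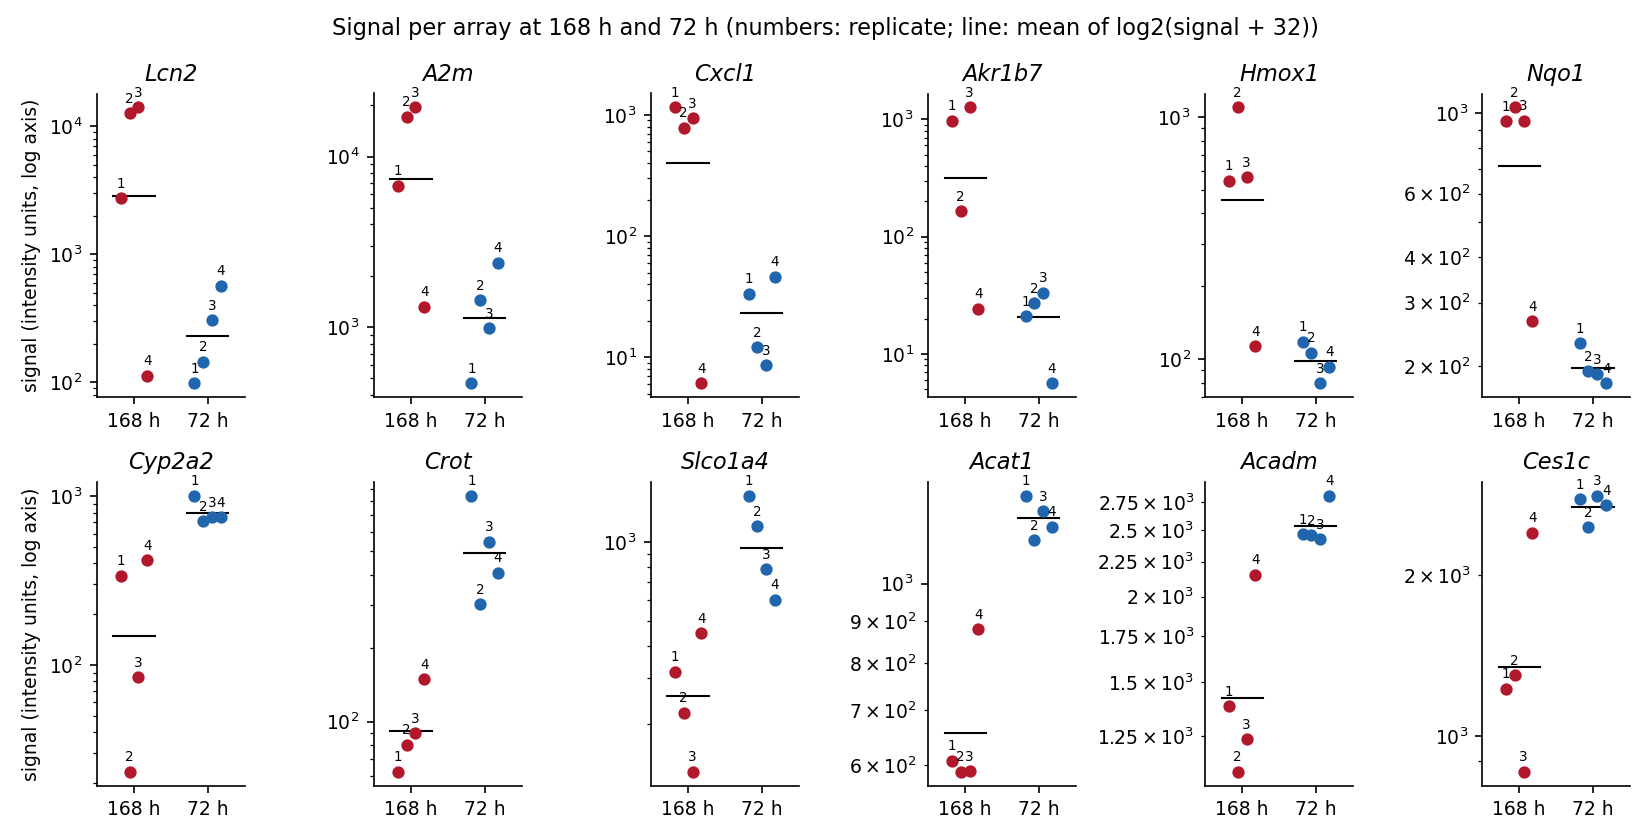
Each panel gives the signal of 1 gene on a log axis for the 4 arrays at 168 h (red) and the 4 at 72 h (blue), with replicate numbers beside the points and a line at the mean taken on the log2(signal + 32) scale. In the upper row replicate 4 of 168 h lies at or near the 72 h arrays, and in the lower row all 168 h arrays lie below all 72 h arrays.

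Among 30 drug-metabolism genes 3 fell, 0 rose and 27 did not pass, where 0.31% of all genes fell, and the median was -0.23. Between 1 and 7 of the 30 fell with single arrays left out, 7 without 168 h replicate 4 and 1 without 168 h replicate 2 or 3, and the median ran from -0.35 (without 168 h replicate 4) to -0.19 (without 72 h replicate 4). Cyp2a2 (probe set 1369424_at), a steroid hydroxylase of male-predominant expression in rat liver, read 339, 23.2, 84.4 and 417 at 168 h, against 1006, 709.9, 753 and 754 at 72 h. No 168 h array reached the lowest 72 h array, and replicates 2 and 3 were far below the other 168 h arrays. The difference was -2.20 ± 0.39, adjusted p = 0.00402, so the level at 72 h was 4.59-fold that at 168 h. It was -1.19 in the low and -2.46 in the high spike-in class. Ces1d, a carboxylesterase that splits drug and lipid esters, read 1143, 449, 477 and 2277 at 168 h, against 2267, 2296, 2082 and 2144 at 72 h (difference -1.30 ± 0.25, adjusted p = 0.0066), and 168 h replicate 4 was inside the 72 h range. Cyp2d3, a hydroxylase of the debrisoquine family, had a difference of -0.79 ± 0.20, adjusted p = 0.0468.

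Of 15 genes listed as sex-differentiated or growth hormone-dependent, 1 rose, 2 fell and 12 did not pass, with a median of -0.33. That median ran from -0.55 (without 168 h replicate 4) to -0.076 (without 168 h replicate 2) with single arrays left out, and 5 fell without 168 h replicate 4, against 1 without any of the others except 168 h replicate 1, when 2 fell. Akr1b7 (probe set 1368569_at), an aldo-keto reductase, was the one that rose, with signals of 973, 164, 1269 and 24.2 at 168 h, against 21, 27.1, 33.2 and 5.6 at 72 h. Replicates 1, 2 and 3 at 168 h were above every 72 h array and replicate 4 was within the 72 h range. The difference was 2.72 ± 0.51, adjusted p = 0.00551, with 4.09 and 2.69 in the low and high spike-in class. It was 2.08 without 168 h replicate 3 and 3.59 without 168 h replicate 4. Ust5r, a transporter of the organic ion family, also fell and read 536, 322, 382 and 756 at 168 h, against 967, 1005, 860.0 and 918 at 72 h (difference -0.94 ± 0.23, adjusted p = 0.0375). Cyp2c11, the main male-specific steroid hydroxylase of rat liver, stood at -0.33 and did not pass (adjusted p = 0.765). Its signals were 3870.4, 1703, 3655 and 8583 at 168 h, against 4564, 4979, 4169 and 5465 at 72 h, and the highest and the lowest of the 8 were both at 168 h.

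Ces1c and Ephx2 are hydrolases among the named genes that fell. Ces1c, a carboxylesterase, read 1227, 1302, 858 and 2401 at 168 h, against 2772, 2459, 2816 and 2702 at 72 h (difference -0.98 ± 0.19, adjusted p = 0.00866), without overlap. Ephx2, the soluble epoxide hydrolase that opens epoxides of fatty acids, read 332, 267, 280.1 and 389 at 168 h, against 481, 494, 692 and 792 at 72 h (difference -0.87 ± 0.20, adjusted p = 0.0242). Both were lower on every 168 h array.

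Slco1a4 (probe set 1387093_at, an uptake transporter for bile acids and organic anions) read 318, 222, 132 and 448 at 168 h, against 1503, 1151, 785 and 600.2 at 72 h. Every 168 h array was below every 72 h array. The difference was -1.77 ± 0.32, adjusted p = 0.00402, with -1.71 and -1.22 in the low and high spike-in class, and a second probe set gave -1.62 ± 0.27, adjusted p = 0.00402. It was the 1 of 18 bile acid genes to pass. The median of those 18 was -0.14, and -0.22 without 72 h replicate 1. Without 168 h replicate 4, 2 of them fell.

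Among 26 genes of fatty acid oxidation and ketogenesis 1 fell, 0 rose and 25 did not pass, while 23 of 26 values were negative and the median was -0.33. The median was -0.32 in the low and -0.48 in the high spike-in class, and -0.23 without 168 h replicates 2 and 3. Without 168 h replicate 4, 5 of the 26 fell, and without 168 h replicate 2 or 3, 0 did. At an unadjusted p under 0.05 there were 12 lower and 1 higher, against 5.94% lower and 5.59% higher over all genes. Acadm, the medium-chain acyl-CoA dehydrogenase of mitochondria, was the one past the threshold, with signals of 1384, 1109.8, 1239 and 2151 at 168 h, against 2467, 2456, 2426 and 2806 at 72 h and a difference of -0.82 ± 0.17, adjusted p = 0.0128. Bdh1, which makes the ketone body beta-hydroxybutyrate, stood at -1.53 (adjusted p = 0.062) and Cpt1a, the gate of mitochondrial fatty acid entry, at -0.75 (adjusted p = 0.337). Cyp4a8, a fatty acid hydroxylase, was the highest of the list at 1.26 (adjusted p = 0.0799).

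Crot and Acat1, which stand near these routes but not on the list, fell as well. Crot (probe set 1368426_at, carnitine octanoyltransferase, which hands chain-shortened acyl groups out of peroxisomes) read 62.2, 80.3, 89.4 and 149.5 at 168 h, against 843, 303, 546 and 408 at 72 h. The groups were far apart on every array. The difference was -2.08 ± 0.41, adjusted p = 0.00686, a 4.23-fold higher level at 72 h, with -2.55 and -1.70 in the low and high spike-in class. A second Crot probe set gave -1.63 ± 0.29, adjusted p = 0.00402.

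Acat1 (probe set 1367763_at), the mitochondrial thiolase of ketone body and isoleucine metabolism, had the lowest adjusted p of the comparison. Its signals were 607, 588, 589.9 and 879 at 168 h, against 1281, 1129.5, 1227 and 1174 at 72 h, and the difference was -0.84 ± 0.13, adjusted p = 0.00166. Within the classes it was -0.96 and -0.77. Retsat, the retinol saturase, read 1060.5, 925, 806 and 1774 at 168 h, against 2719, 1855, 2339 and 2338 at 72 h (difference -1.05 ± 0.21, adjusted p = 0.00703), also without overlap.

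Genes of lipid synthesis did not pass from their brightest probe sets. Of 19 cholesterol synthesis and uptake genes 0 passed and 17 were positive, with a median of 0.45 (0.51 in the low and 0.75 in the high spike-in class). By array, 13, 14, 12 and 3 of the 19 lay above every 72 h array on 168 h replicates 1 to 4, a description, as the shares over all genes tested were not taken. Without 168 h replicate 4, 2 of the 19 rose. Of 19 fatty acid synthesis genes 0 passed, and the median was 0.21, which ran from 0.11 (without 72 h replicate 4) to 0.38 (without 72 h replicate 2) with single arrays left out. Fasn, the fatty acid synthase, read 2304, 3122, 2306 and 2774 at 168 h, against 966, 1535, 670.0 and 535 at 72 h without overlap, and its brightest probe set stood at 1.57 (adjusted p = 0.0879). A dimmer Fasn probe set passed at 1.77 ± 0.37, adjusted p = 0.0125. Scd, the stearoyl-CoA desaturase, read 4311, 6623, 2209 and 5733 at 168 h, against 2078, 3419, 228 and 376 at 72 h. The groups overlapped and the difference was 2.23 (adjusted p = 0.144).

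The other named genes that rose belong to no single group of function. Rgs16, a brake on G protein signalling, read 800.1, 1062, 1044 and 489.7 at 168 h, against 102, 234, 184 and 396 at 72 h (difference 1.82 ± 0.42, adjusted p = 0.0263), without overlap. Fabp5, a fatty acid carrier, read 1266, 1045, 597 and 560.1 at 168 h, against 214, 469, 264 and 296 at 72 h (difference 1.36 ± 0.30, adjusted p = 0.0217). Nampt, the rate-setting enzyme of NAD salvage, read 380.4, 967, 447 and 236 at 168 h, against 147, 193, 147 and 205 at 72 h (difference 1.24 ± 0.27, adjusted p = 0.0186). Each of these 3 was higher on every 168 h array than on any 72 h array. Gucy2c, a membrane guanylate cyclase receptor, had a difference of 1.35 ± 0.31, adjusted p = 0.0239. Pcolce, an enhancer of procollagen processing, had one of 1.36 ± 0.33, adjusted p = 0.0375, Dmbt1, a scavenger receptor family glycoprotein, 1.30 ± 0.31, adjusted p = 0.0333, and Tmem164 1.24 ± 0.27, adjusted p = 0.0149. All 4 overlapped between the groups. With the spike-in class as a block Rgs16 (adjusted p = 0.0533) and Pcolce (adjusted p = 0.058) did not pass.

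The other named genes that fell included Enpp2 (autotaxin, which makes the lipid signal lysophosphatidic acid), with signals of 171, 157, 171 and 358 at 168 h, against 620.4, 437, 425 and 522 at 72 h (difference -1.17 ± 0.24, adjusted p = 0.0103). Fabp7, a fatty acid carrier known from brain, read 402, 171, 243 and 369 at 168 h, against 1427, 367, 989 and 922 at 72 h (difference -1.47 ± 0.35, adjusted p = 0.0332), and 168 h replicates 1 and 4 were above 72 h replicate 2. Plat, the tissue plasminogen activator that starts clot breakdown, read 24.9, 39.2, 17.9 and 47.1 at 168 h, against 64, 79.2, 115 and 72.9 at 72 h (difference -0.84 ± 0.18, adjusted p = 0.0152), the 1 of 14 coagulation and fibrinolysis genes to pass. Sectm1b (-1.08 ± 0.25, adjusted p = 0.0257) and the splicing-related gene Scnm1 (-0.97 ± 0.24, adjusted p = 0.0375) were dim genes, with no signal above 107 and 77.4 on the 8 arrays. With the spike-in class as a block Fabp7, Scnm1, Ust5r and Cyp2d3 did not pass (adjusted p from 0.0675 to 0.0736).

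Pancreas markers varied between the liver arrays. Cela1, a pancreatic elastase, read 104, 331, 68.6 and 251 at 168 h, against 595, 374, 299 and 1128 at 72 h (difference -1.53 ± 0.38, adjusted p = 0.0423), the 1 of 9 acinar markers to pass, and all 9 differences were negative. The summed signal of the 10 acinar markers on the array was 583, 5082, 451 and 3052 at 168 h, against 7130.0, 2412, 1188 and 16345 at 72 h, and 566 to 1943 in the controls. The list's median of -1.32 was -0.0503 without 72 h replicates 1 and 4, the arrays with the largest sums at 72 h, and 0 of its genes then passed. It ran from -1.83 (without 168 h replicate 2) to -0.78 (without 72 h replicate 4) with single arrays left out.

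Tat, the classical glucocorticoid-induced enzyme of tyrosine breakdown, did not pass, with signals of 1845, 2579, 2713 and 814 at 168 h, against 1444, 1867, 1795 and 1638 at 72 h (difference 0.10 ± 0.32, adjusted p = 0.948). Fkbp5, the receptor's feedback chaperone, read 660.2, 393, 497 and 389.7 at 168 h, against 161, 651, 346 and 462 at 72 h (difference 0.35 ± 0.33, adjusted p = 0.772), and its mean of 485 ± 127 at 168 h and 405 ± 206 at 72 h stood beside 75.9 ± 11.8 in the controls (SD, n = 4 each). Nr3c1, the glucocorticoid receptor, read 280.3, 279.5, 295 and 346 at 168 h, against 372, 367, 295 and 195 at 72 h (difference 0.0021 ± 0.24, adjusted p = 0.999). The groups overlapped in all 3 genes. Among 23 glucocorticoid-induced genes 1 rose, Lcn2, and the median was 0.058. With single arrays left out that median ran from 0.0069 (without 72 h replicate 1) to 0.17 (without 168 h replicate 4); 3 rose without 168 h replicate 4, 1 did without 72 h replicate 4 and 0 without any other. Mt2A, a metal-binding stress protein on that list, stood at 1.75 (adjusted p = 0.126).

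Of the 28 pathway and 12 marker lists examined, 28 had no gene past the threshold. Among them were 62 genes of oxidative phosphorylation with a median of -0.085, 33 ribosomal protein genes with -0.027, 32 genes of amino acid breakdown with -0.18, 27 of folding in the endoplasmic reticulum with 0.23 and 19 cell cycle genes with -0.17. The 10 stellate cell and fibroblast markers had a median of 0.027, and the 5 T and NK cell markers one of -0.0796. With single arrays left out these medians ran from -0.16 (without 168 h replicate 4) to -0.044 (without 72 h replicate 4) for oxidative phosphorylation, from -0.047 (without 168 h replicate 3) to 0.027 (without 168 h replicate 2) for ribosomal proteins, from -0.30 (without 168 h replicate 4) to -0.094 (without 168 h replicate 3) for amino acid breakdown and from -0.32 (without 72 h replicate 2) to -0.11 (without 72 h replicate 1) for the cell cycle. They ran from -0.075 (without 72 h replicate 4) to 0.10 (without 168 h replicate 1) for stellate cells and fibroblasts and from -0.20 (without 168 h replicate 2) to -0.047 (without 72 h replicate 4) for T and NK cells. Of 2 B and plasma cell markers on the array 0 were bright enough to test.

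**Figure D4:**
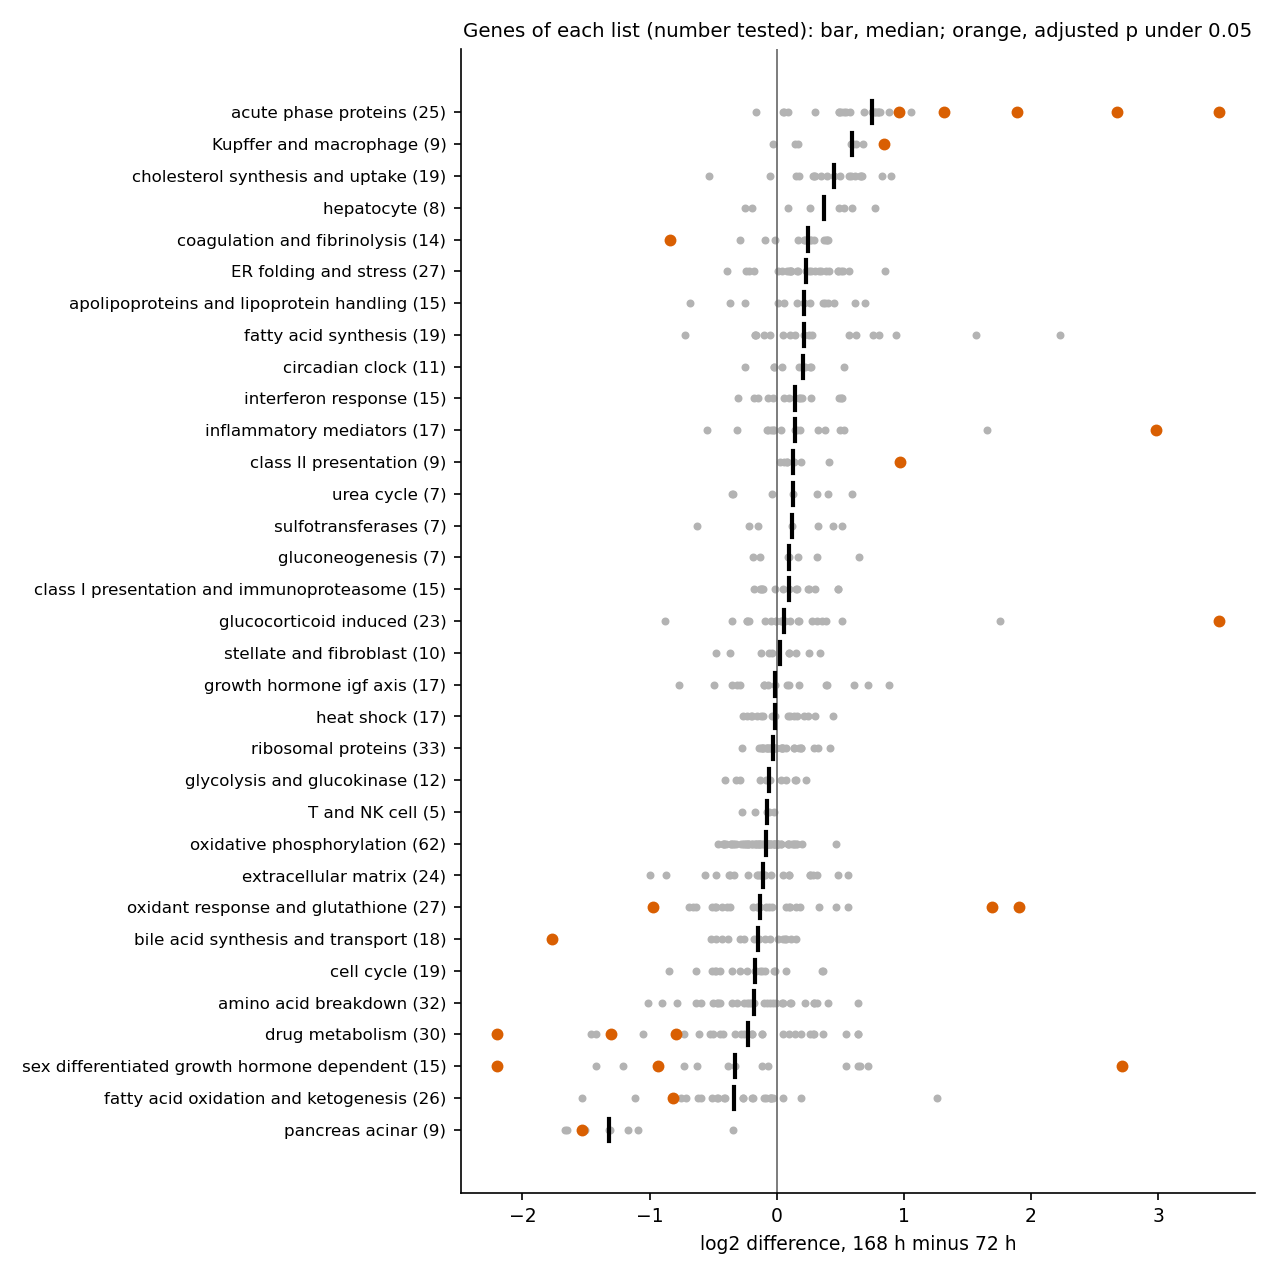
Each point is a gene, placed by its log2 difference of 168 h minus 72 h, in the row of its list, with the number of genes tested in brackets; black bars are list medians and orange points passed the threshold. The acute-phase list has the highest median, 0.75, and the pancreas acinar list the lowest, -1.32; lists with fewer than 5 tested genes are not drawn.

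Over the 10 treated times of the course, 168 h had the highest mean on the log2 scale for 11 of the 17 named genes that rose, and 72 h the lowest for 7. On the linear scale these counts were 13 and 8, as A2m and Cxcl1 were then highest at 168 h. For 16 of the 18 named genes that fell 168 h had the lowest mean, and for 4 of them 72 h had the highest, on either scale. Genes chosen for a difference between 168 h and 72 h tend to be extreme at one of these times, so these ranks are a description. A2m had means of 11152 ± 8569.7 at 168 h, 1321 ± 816 at 72 h and 241 ± 47.2 in the controls (SD, n = 4 each). Its highest mean was 11152 at 168 h on the linear scale, though on the log2 scale the mean was highest at 24 h (13.25, against 12.86 at 168 h). Lcn2 averaged 7375 ± 6978 at 168 h, 279 ± 213 at 72 h and 333 ± 332 in the controls, so its 168 h spread is nearly as large as its mean.

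Some genes lay further from the controls at 168 h than at 72 h, and others nearer. Rgs16 averaged 849 ± 268 at 168 h, 229 ± 124 at 72 h and 74.8 ± 23.8 in the controls. Slco1a4 averaged 279.8 ± 136 at 168 h, 1010.0 ± 401 at 72 h and 2177 ± 1710.4 in the controls. C1qc was at 351 ± 127 at 168 h, nearer to the controls (321 ± 63.5) than to 72 h (172 ± 30.2). Of the 40 higher genes 22 were further from the control mean at 168 h than at 72 h on the log2 scale, as were 18 of the 25 lower genes. On that scale the 96 h mean lay between the means at 168 h and 72 h in 37 of the 40 and in all 25. These genes were chosen for a difference between 168 h and 72 h, which by itself favours such positions. The shares over all genes tested were not taken, so the counts are a description. The controls were not in the fit and the 96 h arrays entered it through the shared spread, and no test was made of these positions.

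**Figure D5:**
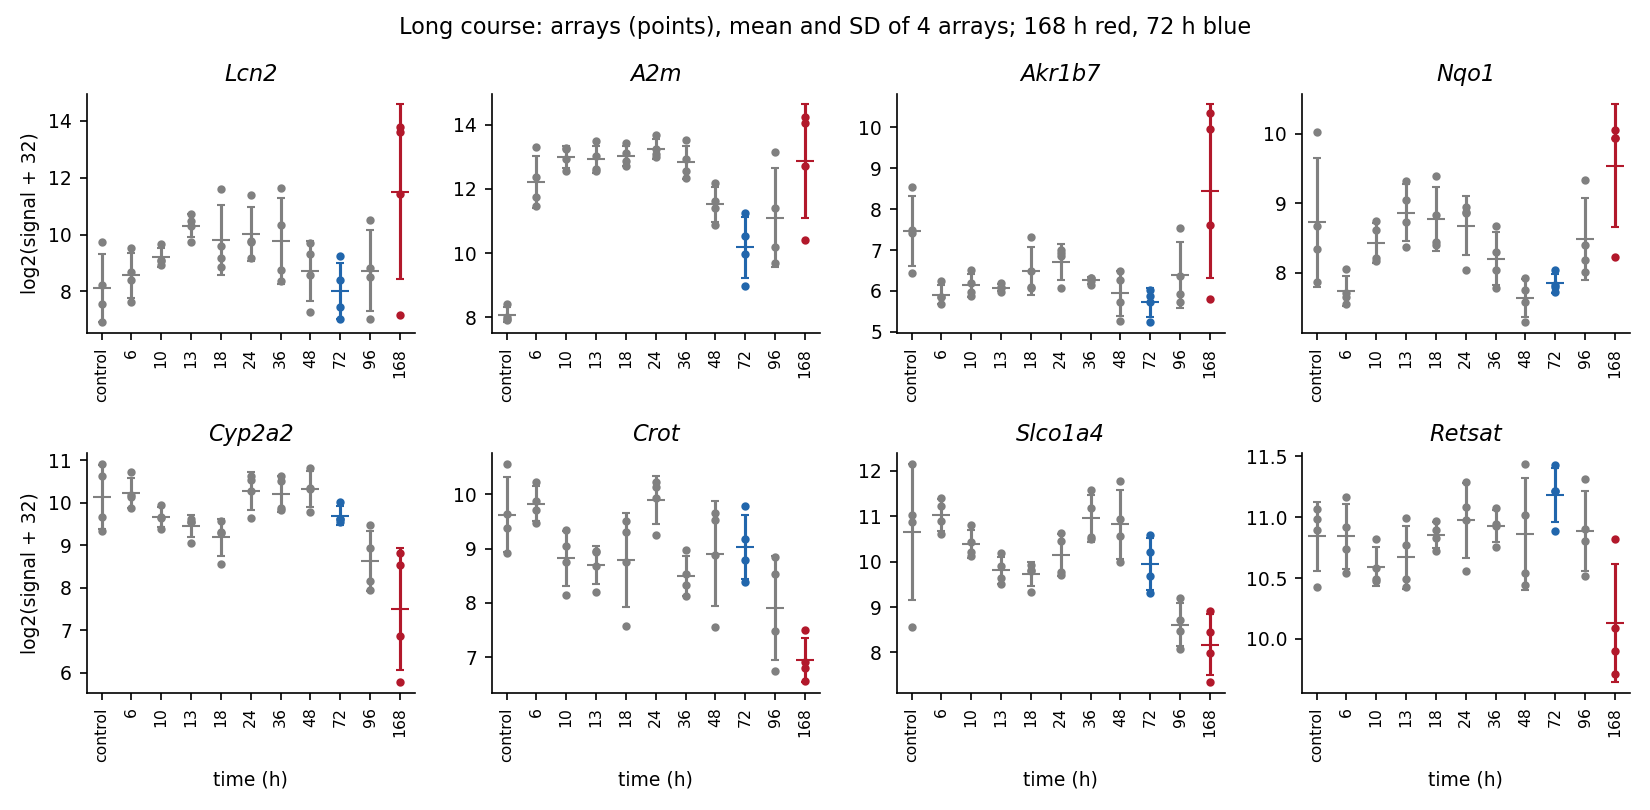
Each panel shows log2(signal + 32) of 1 gene for the controls and 10 treated times, with 4 arrays a time as points and bars at mean ± SD (168 h red, 72 h blue, others grey). Slco1a4 has its lowest mean at 168 h (8.17) after 8.62 at 96 h, while Lcn2 and A2m at 168 h spread over SDs of 3.08 and 1.78.

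Across the 40 treated arrays the 3 genes with values most like those of Lcn2 were Gucy2c (Pearson r 0.78), Map7d1 (0.78) and Lbp (0.77). For Cyp2a2 they were Ust5r (0.88), Slco1a4 (0.83) and Acadm (0.82). The arrays share time groups and the spike-in classes, so these are descriptions.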

How the data were processed

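Liver RNA of 44 arrays was read as the authors' deposited intensity, 1 value per probe set and array on the linear scale. For scanner software and probe summary a name is not given in the sources used here. Every array had a 2% trimmed mean of 150 (150.047 to 150.062 over treated arrays), and the deposited scaling was kept. Depth has no counterpart here, and the number of arrays, 4 a group, limits the precision.

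Values were taken as log2(signal + 32). The 57 AFFX control probe sets and those below the 30th percentile of mean signal were left out, leaving 11106 of 15923. Times were fitted over the 40 treated arrays with limma 3.58.1 (lmFit, eBayes with a trend) in R 4.3.3, with Benjamini-Hochberg adjustment over all 11106; the code was tested on simulated data. Titles set the groups. The array titled 96 h replicate 1 is described as 72 hours; its title was used. Spike-in class is the mean log2 signal of 9 bacterial probe sets, parted at 9. The other 47 arrays, of another design, were not used here.

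Gene names come from GEO's platform annotation: 12789 probe sets have 1 symbol, 312 several and 2771 none, and only the first kind was named. A gene stands for its brightest probe set. Named were the 15 higher and 15 lower genes past the threshold with the largest difference, Tat, Nr3c1 and Fkbp5, and up to 4 members past it of each list; C4bpa, Alb, Serpina3n and other list members that did not pass, and dimmer probe sets, were added after their values were seen. Members, lists and tests were chosen with earlier results of these data known. Promoters were available for 25 of the 38 named genes.

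Alternatives were other scalings, constants, filters, blocks, weights, subsets of arrays and each array left out. Those without 168 h replicates 2 and 3, without 72 h replicates 1 and 4, and with 12 arrays were added after seeing the data.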

Additional observations from a re-analysis of the deposited data

Results flagged for a closer look

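In 10 of 106 groups of 4 arrays examined, 1 array lay so far from the other 3 that its gap, as a share of the group's range, passed Dixon's 95% critical value, which chance does in about 1 of 20 groups. Gaps and ranges were taken on log2 values, for single genes on the same log2 scale as the differences. Gene and summed signals are printed on the linear scale, so the shares cannot be read off them. Linear shares were not tested and can fall below the critical value, as for Cxcl1. On the log2 scale, 168 h replicate 4 stood apart in 4 genes. Its signal was 6.11 for Cxcl1 (share 0.892), 266 for Nqo1 (0.933), 358 for Enpp2 (0.899) and 879 for Acat1 (0.923), each time on the side of the 72 h arrays. At 72 h replicate 1 stood apart for Cyp2a2 (signal 1006, share 0.8291) and replicate 4 for Acadm (signal 2806, share 0.887), both on the high side.

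The spike-in level stood apart on 168 h replicate 1 (7.74 on the log2 scale, share 0.871) and on 72 h replicate 4 (10.23, share 0.92). The summed cholangiocyte markers were high on 72 h replicate 3 (314, share 0.855) and the summed mast cell markers low on 72 h replicate 2 (270.3, share 0.89).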

How the results depend on the processing

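The counts in the 8-array comparison depended on which arrays were fitted. The 81 probe sets, 35 named and 20 list genes past the threshold became 0, 0 and 0 with only the 8 arrays, with only the 12 arrays at 72, 96 and 168 h, with only the arrays of high spike-in signal, and without 168 h replicates 2 and 3 together (933, 868, 484 and 599 at an unadjusted p under 0.05). They became 15, 7 and 4 with the arrays of low spike-in signal and 17, 5 and 4 without 72 h replicates 1 and 4. With 1 array left out they ran from 18 to 279, from 7 to 35 and from 4 to 49. The probe sets numbered 129 (74 higher, 55 lower) after quantile normalization, 122 with 96 h replicate 1 counted as 72 h, 19 at an adjusted p under 0.01, and 39 with a log2 difference of 1 or more also asked for. All 44 arrays, median centring, added constants of 16 and 64, other filters, array weights, the spike-in block and eBayes without a trend gave 62 to 106. The causes of these shifts were not tested.

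By their deviations, replicate numbers did not pair the 168 h and 72 h arrays, though number 4 had high spike-in signal in 11 of 11 groups: deviations of same-numbered arrays correlated at 0.11, -0.18, 0.04 and 0.05, and of the 168 h arrays only replicate 4 was closest to the 72 h array of its own number. With the replicate block 122 probe sets passed, the 81 among them.

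Calls of named genes ended without 168 h replicate 1 for Lcn2, Cxcl1, Fabp5, Tmem164 and Cela1 (adjusted p 0.0509 to 0.0928); without 168 h replicate 2 for Lcn2, Cxcl1, A2m, Lbp, Rgs16, Fabp5, Pcolce, Gucy2c, Il1r1, Dmbt1, Nampt, Fabp7, Ces1d, Enpp2, Sectm1b, Retsat, Gstm1, Scnm1, Ust5r, Ephx2, Acadm, Cyp2d3, Ctss and C1qc (adjusted p 0.0549 to 0.24); without 168 h replicate 3 for Lcn2, Cxcl1, Akr1b7, A2m, Lbp, Rgs16, Pcolce, Gucy2c, Il1r1, Dmbt1, Tmem164, Nampt, Cela1, Fabp7, Ces1d, Enpp2, Sectm1b, Retsat, Ces1c, Gstm1, Scnm1, Ust5r, Ephx2, Acadm, Cyp2d3, Plat, Ctss and C1qc (adjusted p 0.0746 to 0.287); without 72 h replicate 1 for Lcn2, Cxcl1, A2m, Lbp, Rgs16, Fabp5, Pcolce, Gucy2c, Dmbt1, Tmem164, Nampt, Cela1, Fabp7, Sectm1b, Gstm1, Scnm1, Ust5r, Cyp2d3 and C1qc (adjusted p 0.0589 to 0.16). More calls were lost without 72 h replicate 2 for Lcn2, Cxcl1, Lbp, Pcolce, Gucy2c, Dmbt1, Scnm1, Ust5r and Cyp2d3 (adjusted p 0.0586 to 0.113), without 72 h replicate 3 for Lcn2, Cxcl1, A2m, Lbp, Rgs16, Fabp5, Pcolce, Gucy2c, Tmem164, Nampt, Fabp7, Gstm1, Scnm1, Ust5r, Ephx2, Cyp2d3, Plat, Ctss and C1qc (adjusted p 0.0527 to 0.127), without 72 h replicate 4 for Dmbt1, Cela1, Fabp7, Sectm1b, Ust5r, Ephx2 and Cyp2d3 (adjusted p 0.0531 to 0.165). Without 168 h replicate 4 none of the 35 ended.

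The differences of 3 genes that never passed changed sign. Nr3c1 became -0.033 with median centring, -0.0011 with 64 added, -0.089 with array weights, -0.26 in the low spike-in class, -0.052 with 96 h replicate 1 as 72 h, and -0.061, -0.0035, -0.18 and -0.13 without 168 h replicate 4, 72 h replicate 3, 72 h replicate 4, and 72 h replicates 1 and 4. Tat became -0.066, -0.0903, -0.44 and -0.0204 without 168 h replicate 2, 168 h replicate 3, both of these, and 72 h replicates 1 and 4. With single arrays left out Nr3c1 ran from -0.18 to 0.099 and Tat from -0.0903 to 0.48. Fkbp5 became -0.12 in the high spike-in class and -0.00698 without 72 h replicates 1 and 4.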

Other observations

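Probe sets that were not the brightest of their gene passed for several genes, and some did so where the brightest did not. For Kng2l1 the dimmer probe set read 860.5, 1019, 1207 and 123 at 168 h, against 147, 100.3, 98.4 and 106 at 72 h (difference 2.18 ± 0.46, adjusted p = 0.0125), while the brightest stood at 0.52 (adjusted p = 0.0794). Stat3, the transcription factor through which interleukin-6 acts, gave 1.30 ± 0.27, adjusted p = 0.0103 against 1.05 (adjusted p = 0.202), and Fga, a fibrinogen chain, 1.64 ± 0.39, adjusted p = 0.0333 against 0.80 (adjusted p = 0.198). For Ago1 the probe sets disagreed: a dim one read 5.16, 11.3, 17.7 and 12.8 at 168 h, against 51.5, 59.5, 71.2 and 54.3 at 72 h (-1.06 ± 0.19, adjusted p = 0.00402) and the brightest stood at -0.071 (adjusted p = 0.945). These probe sets were picked out after their values were seen.

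The array titled 96 h replicate 1 but described as 72 hours had a mean correlation of 0.950 with the 72 h arrays, as did 96 h replicate 4, whose labels do not conflict. Its mean correlation with the other 96 h arrays was 0.930, and one of these, replicate 3, had the lowest mean correlation with the treated arrays (0.890). These values do not tell which label holds.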
